A study of Homo sapiens with 6 samples.

Results

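The miR-30 family was examined in small RNA libraries of KPL4, an established human breast adenocarcinoma line, through 10 mature arms chosen by name: the 5p and 3p arms of miR-30a, miR-30b, miR-30d and miR-30e, miR-30c-5p and miR-30c-2-3p. All 10 were among the 2656 mature miRNAs listed, and all 10 were abundant enough to be among the 783 that were tested. One group held 3 libraries of cells with the genotype ERβ knockout, here called S1, S2 and 3, and the other held 3 libraries of ERβ knockout cells that also carry exogenous ERβ, here called 1, 2 and 3. ERβ is estrogen receptor β, and its own gene is disrupted in both groups. The labels name no vector, promoter or clone and no knockout group with an empty vector, so what ERβ does and what else separates these cells cannot be told apart. Nothing in the labels says that libraries of a group were separate cultures, and p-values then measure only the spread between these libraries.

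A miRNA hairpin is cut into a duplex of a 5p and a 3p arm, of which one is usually kept in Argonaute to repress messenger RNAs that match its seed. In the miR-30 family the 5p arm is the guide and the 3p arm is the strand that is mostly discarded. The family is known in breast epithelium for restraining tumour-initiating and mesenchymal states, with SNAI1 and ITGB3 among its described targets, and miR-30a is also known to repress the autophagy gene BECN1. The hairpins lie in 3 genomic pairs, and miR-30c-5p is made by hairpins of 2 of them.

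The mature sequences are shown for how closely the members resemble each other and for where the arms of the 2 miR-30c hairpins part. They are from RefSeq (build GRCh38.p14), which gave 7 of the 11 names looked up, and are written 5′ to 3′ with the seed (bases 2 to 8) in capitals. The miR-30b and miR-30d arms are named only.
miR-30a-5p: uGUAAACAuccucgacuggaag
miR-30e-5p: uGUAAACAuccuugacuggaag
miR-30c-5p: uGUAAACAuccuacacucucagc
miR-30a-3p: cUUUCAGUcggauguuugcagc
miR-30e-3p: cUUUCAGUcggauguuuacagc
miR-30c-2-3p: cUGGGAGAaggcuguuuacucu
miR-30c-1-3p: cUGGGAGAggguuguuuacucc

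The 3 printed 5p arms share 1 seed, by which the guides of this family are known. Counted from 1 at the 5′ end, miR-30a-5p and miR-30e-5p differ at a single base, C13U, and their 3p arms at a single base, G18A. miR-30c-5p differs from miR-30a-5p at 5 of 22 positions, all outside the seed. The printed 3p arms fall into 2 seed groups, that of miR-30a-3p with miR-30e-3p and that of both miR-30c 3p arms. The seed of the latter also occurs in miR-6788-5p, which had at most 1 count in a library. miR-30c-1-3p and miR-30c-2-3p differ at 3 positions (G9A, U12C and C22U), so these arms, unlike miR-30c-5p, show which hairpin they came from. miR-30c-1-3p is not one of the 10 arms and is given only beside its pair.

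On GRCh38, MIR30A (chromosome 6, 71403551 to 71403621) and MIR30C2 (chromosome 6, 71376960 to 71377031) lie 26519 bases apart on the minus strand in introns of the long non-coding RNA genes LINC00472 and AL136164.2. MIR30E (chromosome 1, 40754355 to 40754446) and MIR30C1 (chromosome 1, 40757284 to 40757372) lie 2837 bases apart on the plus strand in introns of NFYC, which encodes a subunit of the transcription factor NF-Y. MIR30D (chromosome 8, 134804876 to 134804945) and MIR30B (chromosome 8, 134800520 to 134800607) lie 4268 bases apart on the minus strand, and no annotated gene contains them. Host transcripts are not measured by this assay.

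Total counts per library ranged from 10288415 to 14296902, and the 10 arms took 2.90 to 3.31% of them. Knockout library S2 stood apart: its median absolute log2 difference over all tested miRNAs was 0.288 from S1 and 0.330 from knockout library 3, against 0.137 between those 2 and 0.110 to 0.136 among the ERβ libraries. Results on the miR-30 arms that rest on S2 are therefore given with and without it. Breast epithelial miRNAs were abundant, summing to 75543 to 83236 CPM (counts relative to TMM-adjusted library totals) in knockout libraries and 70267 to 73650 CPM with ERβ. Of 8, 2 were higher and 4 lower, beside 9.83% and 13.3% of all tested miRNAs. The counts were 3 and 1 on upper-quartile scaling or library totals, and 3 and 5 without S2 (15.2% and 19.6% of all miRNAs). They were 1 and 2 without knockout library S1 or 3. With the replicate number as a block, or without any 1 ERβ library, they were 1 and 1. Calls over all miRNAs moved too, from 77 higher and 104 lower to 123 and 70 (upper-quartile) and 146 and 61 (library totals). Without knockout library S1 or 3 they were 62 and 81 or 71 and 88, and with the block 38 and 50. Without ERβ library 1, 2 or 3 they were 53 and 58, 52 and 60, or 49 and 62. Of 18 markers of stromal, endothelial, blood, muscle, neural and liver cells, 10 could be tested, and 0 were higher and 4 lower with ERβ. This stands beside the same 9.83% and 13.3% of all tested miRNAs. The counts were 1 and 3 on library totals and 0 and 5 without S2, and the median log2 fold change was -0.35. Their summed level was 21909 to 23525 CPM in knockout and 18342 to 20246 CPM in ERβ libraries, most of it the endothelial miR-126-3p. None of the 18 was at 0 in all libraries, though neural miR-124-3p averaged 0.165 counts and muscle miR-206 averaged 0.333 counts. Their part in the results below was not tested. All libraries are labelled as KPL4 cells, so the marker names do not show that cells of those types were present. Bulk libraries cannot tell a change in the mix of cells from a change in RNA per cell.

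With exogenous ERβ and all 6 libraries, miR-30d-5p was the member that differed most, 32.4% below knockout cells. Its neighbour miR-30b-5p was 20.6% below. In the edgeR quasi-likelihood fit these 2 of the 10 arms were lower and 0 were higher (Benjamini-Hochberg adjusted p under 0.05), whereas 23.1% of all tested miRNAs passed, 13.3% lower and 9.83% higher. The median log2 fold change (ERβ over knockout throughout, so that negative values are lower with ERβ) was -0.12 over the 10 arms and -0.01 over all tested miRNAs. In TMM-scaled CPM the groups did not overlap in 5 of the 10 arms and in 39.8% of all tested miRNAs. In 4 of these arms every ERβ library lay below every knockout library (20.9% of all tested) and in 1 above (18.9%). No test compared the family with other miRNAs. Without knockout library S2, 5 arms were lower and 0 higher, where 19.6% of the 800 miRNAs tested in that fit were lower and 15.2% higher. The 5 were miR-30b-5p, miR-30c-5p, miR-30d-5p, miR-30d-3p and miR-30e-3p. In that fit miR-30d-5p and miR-30b-5p lay close together, at log2 fold changes of -0.43 ± 0.04 and -0.40 ± 0.04.

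The 5p arms held 95.7 to 96.6% of the counts of the 10 arms in every library. A mature arm is read whole, so CPM here need no correction for length, although ligation can favour some ends over others. The handling of molecular identifiers was not given, so a count may stand for a molecule or for an amplified copy. In knockout cells the order of mean levels was miR-30d-5p (11666 ± 1842 CPM, mean ± SD, n = 3), miR-30a-5p (7661 ± 248), miR-30e-5p (6761 ± 475), miR-30c-5p (2798 ± 155) and miR-30b-5p (2504 ± 231). Among these only the ranges of miR-30c-5p and miR-30b-5p overlapped. With ERβ, miR-30a-5p (8061 ± 125 CPM) stood first, with a range that overlapped that of miR-30d-5p (7883 ± 273), followed by miR-30e-5p (6722 ± 314), miR-30c-5p (2454 ± 12.1) and miR-30b-5p (1990 ± 28.5), whose ranges did not overlap. miR-30d-5p had more counts than miR-30a-5p in 3 of 3 knockout libraries and in 0 of 3 with ERβ. The counts with ERβ were nearly equal in library 1 (87960.5 and 88090.5) and library 2 (121644 and 122500). In library 3 they were 112284 and 119170. The 3p arms followed at 561 ± 47.8 CPM for miR-30e-3p, 462 ± 39.0 for miR-30a-3p, 174 ± 23.1 for miR-30d-3p, 25.0 ± 3.28 for miR-30c-2-3p and 6.71 ± 0.933 for miR-30b-3p in knockout cells. By mean level over the 6 libraries, miR-30d-5p ranked 26th and miR-30b-3p 458th of the 783 tested.

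**Figure D1:**
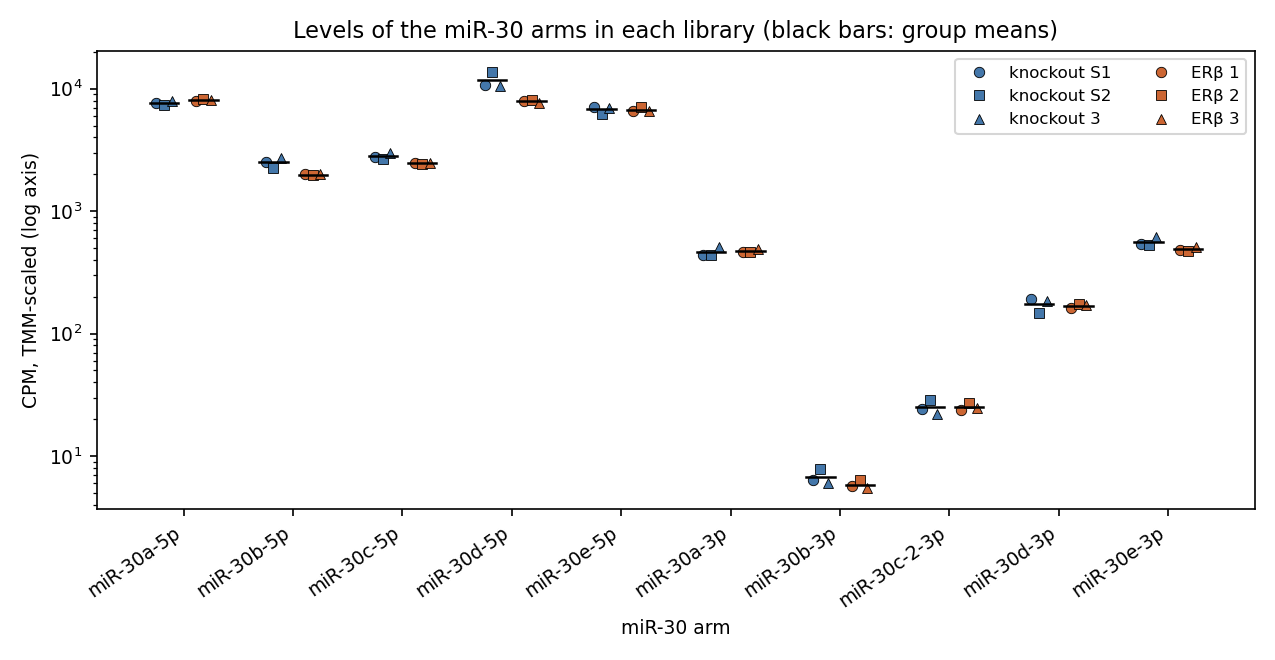
Level of each miR-30 arm in each library, as TMM-scaled CPM on a log axis; blue points are knockout and orange points ERβ libraries, and black bars are group means (n = 3). miR-30d-5p lies between 10543 and 13792 CPM in knockout libraries and between 7592 and 8132 CPM with ERβ, while the other arms differ little on this axis.

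Of the pair on chromosome 8, whose members are described together as repressors of GALNT7 in melanoma, miR-30d-5p stood at 10664, 13792 and 10543 CPM in knockout libraries S1, S2 and 3 and at 7926, 8132 and 7592 CPM in ERβ libraries 1, 2 and 3. The groups did not overlap, and S2 was by far the highest. Its log2 fold change was -0.57 ± 0.10 (SE; edgeR, adjusted p = 0.00419). Without S2 it was -0.43 ± 0.04 (adjusted p = 3.21e-08). miR-30d-5p passed in all 14 alternatives that were run, at -0.63 to -0.42.

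miR-30b-5p was at 2526, 2263 and 2723 CPM in knockout libraries S1, S2 and 3 and at 2008, 1957 and 2003 CPM with ERβ. S2 was the lowest knockout library here, the reverse of its place for miR-30d-5p, and the groups did not overlap. The log2 fold change of miR-30b-5p was -0.33 ± 0.08 (edgeR quasi-likelihood test, adjusted p = 0.0160) and, without S2, -0.40 ± 0.04 (adjusted p = 1.92e-07). The call was lost in 8 of 14 alternatives: under upper-quartile scaling, on library totals, with a replicate block (adjusted p = 0.110; 2 knockout libraries share the number 1, and ERβ library 2 is alone in its block), and without any 1 of the 5 libraries other than S2.

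Neither 3p arm of this pair passed with all 6 libraries. miR-30d-3p was at 191, 148 and 183 CPM in knockout libraries S1, S2 and 3 and at 162, 173 and 170 CPM with ERβ. Only S2 lay below the ERβ libraries, so the groups overlapped, and the log2 fold change was -0.05 ± 0.11 (edgeR, adjusted p = 0.807). Without S2 the value was -0.15 ± 0.06 and passed (adjusted p = 0.0409). miR-30b-3p, with 59 to 95 counts a library, was at 6.36, 7.77 and 6.0 CPM in knockout and 5.68, 6.35 and 5.48 CPM in ERβ libraries (-0.21 ± 0.16), which overlap, and the difference did not pass (adjusted p = 0.412).

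Of the pair on chromosome 6, miR-30a-5p was at 7659, 7413 and 7910 CPM in knockout libraries and at 7938, 8189 and 8057 CPM with ERβ. The lowest ERβ library stood just above the highest knockout library, and the log2 fold change of 0.07 ± 0.06 did not pass (edgeR, adjusted p = 0.447). Under upper-quartile factors it was 0.19 and passed (adjusted p = 0.0498), as with library totals (0.23; adjusted p = 0.0130). miR-30c-5p, which this locus shares with chromosome 1, was at 2789, 2647 and 2957 CPM in knockout and at 2449, 2446 and 2468 CPM in ERβ libraries. On TMM scaling every ERβ library was lower. The value of -0.19 ± 0.07 did not pass with S2 (edgeR, adjusted p = 0.0776) and passed without it (-0.23 ± 0.04, adjusted p = 1.86e-04). Under upper-quartile factors miR-30c-5p was at -0.08 and on library totals at -0.03, and it passed under neither. Described as a repressor of TWF1, a cytoskeletal regulator, in breast cancer cells, miR-30c-5p is the only 5p arm of the family with 2 hairpins.

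The 3p arms from chromosome 6 did not pass. miR-30a-3p, at 437, 442 and 507 CPM in knockout and 464, 463 and 494 CPM in ERβ libraries, had a log2 fold change of 0.04 ± 0.08. miR-30c-2-3p, the arm that is specific to MIR30C2, was at 24.2, 28.6 and 22.2 CPM in knockout and 24.0, 27.0 and 24.5 CPM in ERβ libraries (0.01 ± 0.12). In both arms the ERβ values lay within the knockout range.

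Of the pair in NFYC, miR-30e-5p was at 7127, 6224 and 6931 CPM in knockout and 6555, 7085 and 6528 CPM in ERβ libraries. The groups overlapped fully and the log2 fold change was -0.01 ± 0.07 (edgeR, adjusted p = 0.945), with a sign that turned in 8 of 14 alternatives. miR-30e-3p was at 538, 528 and 616 CPM in knockout and 479, 474 and 512 CPM in ERβ libraries. On TMM scaling all ERβ libraries were lower. The value of -0.20 ± 0.09 did not pass (edgeR, adjusted p = 0.134) except without S2 (-0.24 ± 0.06, adjusted p = 0.00185). Under upper-quartile factors miR-30e-3p was at -0.09 and on library totals at -0.04. The arm specific to MIR30C1, miR-30c-1-3p, was at 7.73, 11.98 and 9.16 CPM in knockout and 10.1, 8.89 and 11.4 CPM in ERβ libraries (0.07 ± 0.18), which overlap. With all 6 libraries, neither miR-30c-5p nor the 3p arms that tell its hairpins apart passed the test. On TMM scaling miR-30c-5p was lower in every ERβ library, but its log2 fold change was only -0.03 on library totals. The standard errors were larger for miR-30c-2-3p (0.12) and miR-30c-1-3p (0.18) than for miR-30c-5p (0.07). These 3p arms therefore cannot show which hairpin the level of miR-30c-5p followed.

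**Figure D2:**
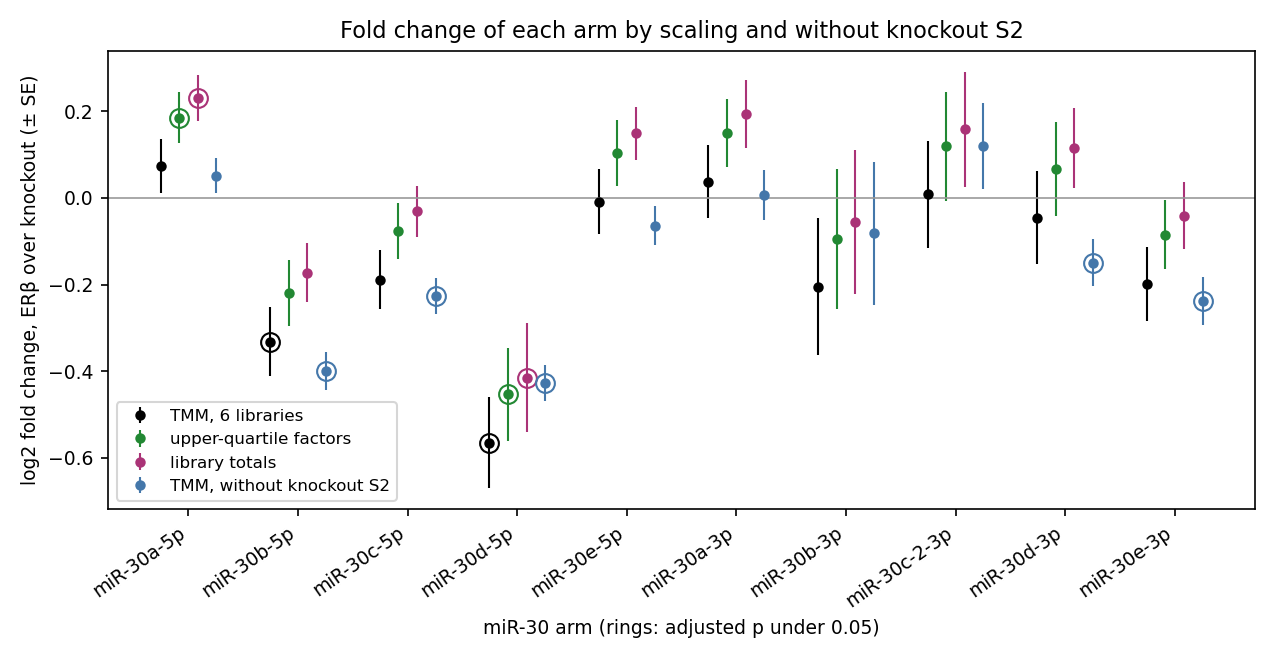
Log2 fold change of each miR-30 arm, ERβ over knockout, with its standard error, under TMM scaling with 6 libraries, upper-quartile factors, library totals, and TMM without knockout library S2; rings mark an adjusted p under 0.05. miR-30d-5p is ringed and negative under all 4, whereas miR-30a-5p is ringed only under upper-quartile factors (0.19) and library totals (0.23).

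The choice of scaling moved all values together. The median over all tested miRNAs was 0.10 on upper-quartile scaling and 0.14 on library totals, against -0.01 with TMM, and the calls over all of them went from 77 higher and 104 lower to 123 and 70, and to 146 and 61. Under both of these scalings 1 arm was higher (miR-30a-5p) and 1 lower (miR-30d-5p), and miR-30d-3p and miR-30e-5p turned positive. At -0.45 ± 0.11 and -0.42 ± 0.13, miR-30d-5p lay further below that shifted median than any other arm, and it passed under each scaling tried.

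Ratios taken within a library are free of the scaling. As a share of the summed 5p counts, miR-30d-5p made up 34.7, 42.6 and 33.9% in knockout libraries S1, S2 and 3 and 29.5, 29.2 and 28.5% with ERβ, a drop from 37.1 ± 4.83 to 29.1 ± 0.522%. miR-30a-5p went the other way, from 24.9, 22.9 and 25.5% to 29.5, 29.4 and 30.2%. miR-30e-5p took 23.2, 19.2 and 22.3% in knockout and 24.4, 25.5 and 24.5% in ERβ libraries. For these 3 arms the groups did not overlap, but they are parts of the same sum, and a drop in miR-30d-5p alone raises the shares of the others. Each had an exact two-sided permutation p of 0.1, the smallest that 3 libraries against 3 allow, and 0.167 when adjusted over the 5 arms, so no share can pass a threshold of 0.05 in this design. The shares of miR-30b-5p (7.99 ± 0.904 and 7.34 ± 0.266%) and miR-30c-5p (8.92 ± 0.678 and 9.06 ± 0.238%) overlapped between the groups. The mean share of miR-30d-5p dropped by 8.01 percentage points with ERβ, and dropped by 5.23 points when S2 was left out.

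**Figure D3:**
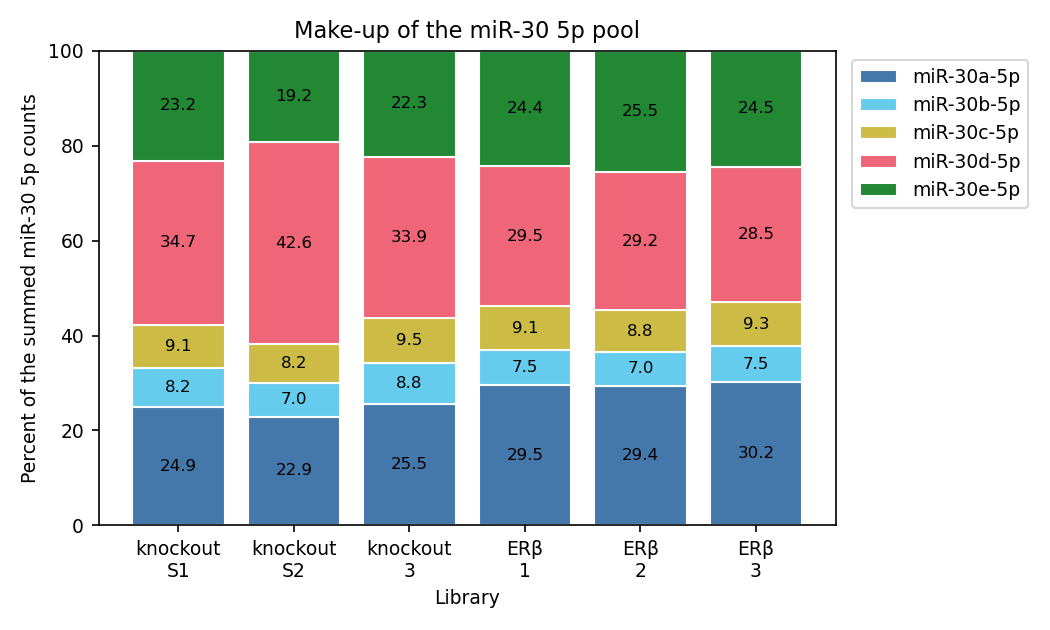
Percent of the summed miR-30 5p counts taken by each 5p arm, 1 bar per library. The miR-30d-5p segment is 33.9 to 42.6% in knockout and 28.5 to 29.5% in ERβ libraries, and the miR-30a-5p segment is 22.9 to 25.5% and 29.4 to 30.2%.

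Within the genomic pairs, the ratio of miR-30a-5p to miR-30c-5p was 2.75, 2.80 and 2.67 in knockout and 3.24, 3.35 and 3.26 in ERβ libraries. This is a difference of 0.26 in log2 ratio, with no overlap. The ratio of miR-30e-5p to miR-30c-5p was 2.56, 2.35 and 2.34 in knockout and 2.68, 2.90 and 2.64 with ERβ, a log2 difference of 0.18, again with no overlap. For both the exact two-sided permutation p was 0.1, the smallest possible, and 0.15 adjusted over the 3 pairs. Since both ratios share miR-30c-5p and use the same libraries, they are not independent. The ratio of miR-30d-5p to miR-30b-5p was 4.22, 6.09 and 3.87 in knockout and 3.95, 4.16 and 3.79 with ERβ, and overlapped (log2 difference -0.23, exact permutation p = 0.4, adjusted 0.4). Without S2 that difference was -0.03, beside log2 fold changes of -0.43 and -0.40 for the 2 arms.

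Because reads of near-identical arms can be divided among names, the arms were also summed. The 5 guides together had 30853, 32249 and 31075 CPM in knockout and 26878, 27796 and 26648 CPM in ERβ libraries. The groups did not overlap, and the log2 fold change of the sum was -0.21 ± 0.06 (edgeR quasi-likelihood test, adjusted p = 0.0295). The call depended on the processing, being lost in 10 of 14 alternatives, among them both scalings above (-0.12 and -0.06) and the omission of any 1 library except S2. With miR-30d-5p kept apart, the other 4 guides summed to 19534 ± 879 CPM in knockout and 19409 ± 352 CPM in ERβ cells (-0.01 ± 0.06, edgeR, adjusted p = 0.926). This sum joins arms that went both ways, from -0.33 for miR-30b-5p to 0.07 for miR-30a-5p. It was fitted only under TMM with all 6 libraries, of which S2 was the lowest at 18552 CPM. The summed 3p arms were at 1228 ± 94.9 and 1162 ± 39.4 CPM (-0.08 ± 0.08; adjusted p = 0.532) and overlapped.

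The ratio of 5p to 3p counts of a hairpin shows how far the guide outnumbers its partner arm. It was lowest for miR-30e (11.3 to 14.9 over the 6 libraries) and miR-30a (15.6 to 17.7), higher for miR-30d (44.6 to 93.5) and for miR-30c-5p over miR-30c-2-3p (90.5 to 133), and highest for miR-30b (290 to 450). Since miR-30c-5p comes from hairpins of both other pairs, its ratio to a single 3p arm overstates that of the hairpin. In the chromosome 8 pair, which is free of this, miR-30b and miR-30d differed more from each other than the groups did. For miR-30d the ratio was 55.9, 93.5 and 57.6 in knockout libraries S1, S2 and 3 and 49.0, 47.0 and 44.6 with ERβ. With all 6 libraries this was the only miR-30 hairpin whose groups did not overlap, where 17.9% of all 235 hairpins tested did not. Without S2 the groups of miR-30b, miR-30c-2 and miR-30c-1 did not overlap either, and the share of all hairpins was not computed for that case.

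In the limma fit over all 235 hairpins with both arms tested, the log2 arm ratio of miR-30d was lower with ERβ at -0.52 ± 0.22 (limma, adjusted p = 0.531), or -0.28 ± 0.09 without S2 (limma, adjusted p = 0.270). The other log2 differences were 0.03 ± 0.11 for miR-30a, -0.13 ± 0.19 for miR-30b, -0.20 ± 0.16 for miR-30c-2 and 0.19 ± 0.13 for miR-30e, all overlapping between groups. Without S2 they were 0.04 ± 0.10, -0.31 ± 0.12, -0.34 ± 0.12 and 0.17 ± 0.13, so miR-30d did not stand out, and no miR-30 hairpin passed. The ratio for miR-30c-1 differed by -0.27 ± 0.21, or by -0.48 ± 0.14 without S2. With all 6 libraries, no miR-30 hairpin had an unadjusted p under 0.05. Of all hairpins 22 did, and limma called 0 (0%) after adjustment.

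**Figure D4:**
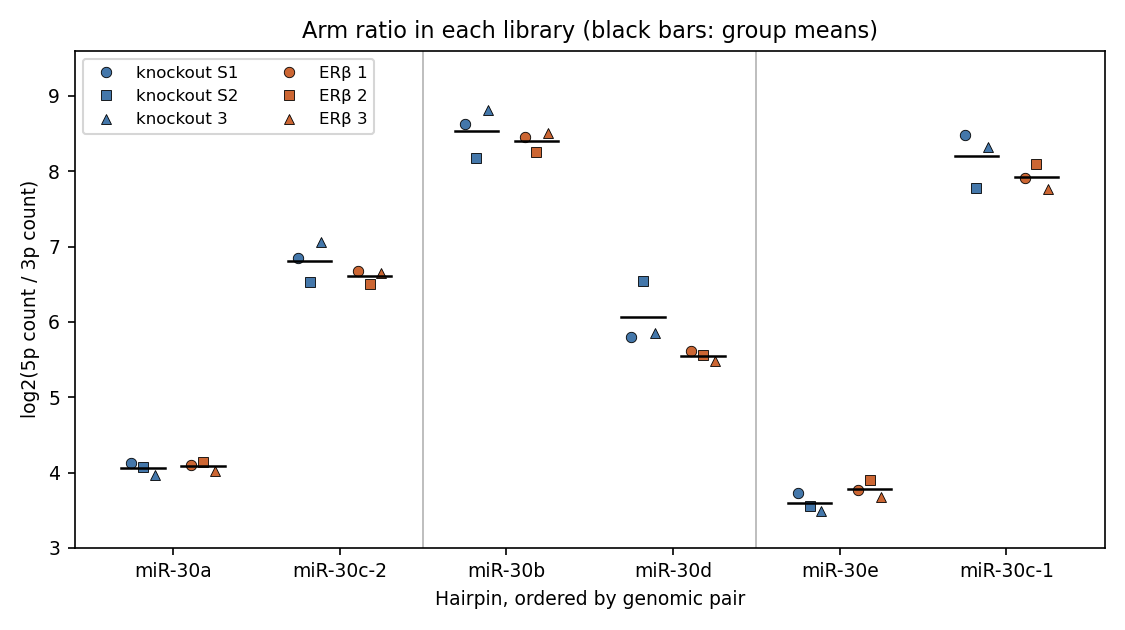
Log2 ratio of 5p to 3p counts of each miR-30 hairpin in each library, ordered by genomic pair (grey lines divide the pairs); black bars are group means (n = 3), and miR-30c-1 is shown beside its pair. For miR-30d, knockout library S2 has a ratio of 93.5 and the other 5 libraries 44.6 to 57.6.

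The miRNAs whose levels followed those of miR-30d-5p most closely over the 6 libraries were miR-503-5p, miR-625-5p and miR-625-3p, with Pearson's r of 0.998, 0.998 and 0.994 among 381 miRNAs averaging at least 10 CPM. miR-503-5p was at 390, 546 and 397 CPM in knockout and 278, 283 and 271 CPM in ERβ libraries, so S2 was the highest of these 6 as well. For miR-30a-5p they were miR-374b-5p (0.973), miR-374a-5p (0.968) and miR-548aq-3p (0.965). miR-374a-5p was at 7055, 5044 and 7515 CPM in knockout and 8607, 9571 and 9202 CPM with ERβ, with S2 the lowest. Over the 5 libraries without S2 these values were 0.985 to 0.996 for the first 3 miRNAs and 0.905 to 0.943 for the others. The correlations describe 6 libraries that share their scaling, their 2 groups and the deviating S2.

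Other miRNAs that share described roles with miR-30 moved in both directions. Of 15 autophagy-repressing miRNAs 12 were tested, and 5 were higher and 3 lower with ERβ (median log2 fold change 0.27), beside 9.83% and 13.3% of all tested miRNAs. miR-376b-3p (0.93 ± 0.16) and miR-376a-3p (0.70 ± 0.13), both described as repressors of ATG4C, were higher and miR-375-3p (-0.57 ± 0.10), which represses ATG7, was lower. These 3 passed in all 14 alternatives, and the counts were 5 higher and 1 lower on upper-quartile scaling, 6 and 1 on library totals, and 7 and 3 without S2, where 15.2% and 19.6% of all miRNAs were higher and lower. They were 2 higher and 1 lower without any 1 of the ERβ libraries. Calls over all miRNAs then fell too, from 77 higher and 104 lower to 53 and 58, 52 and 60, and 49 and 62. On upper-quartile scaling they were 123 and 70, and on library totals 146 and 61. Of 11 epithelial-state miRNAs, whose targets include mesenchymal transcription factors as SNAI1 is for miR-30, 1 was higher and 3 lower (median -0.11), beside the same 9.83% and 13.3%. miR-205-5p was higher (0.52 ± 0.08), and miR-200c-3p (-0.31 ± 0.07) and miR-203a-3p (-0.25 ± 0.06) were lower. These miRNAs and miR-141-3p, which was also lower, are among the breast epithelial markers given above, as is miR-375-3p. The lists thus overlap and are not separate results. miR-205-5p passed in all 14 alternatives, while miR-200c-3p lost its call in 6 and miR-203a-3p in 9. The median of this list turned to 0.01 on upper-quartile scaling, 0.05 on library totals and 0.03 without ERβ library 1. Its counts were 1 higher and 0 lower on upper-quartile scaling or without any 1 ERβ library, and 2 and 0 with library totals. They were 1 and 1 without knockout library S1 or 3, and 1 and 5 without S2 (beside 15.2% and 19.6% of all miRNAs). Calls over all miRNAs moved in the same settings, as given above.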

How the data were processed

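Small RNA libraries were made with a QIAseq miRNA kit, per the labels' protocols. FastQC, Trim Galore and GRCh38 are named per the submitters' processing notes. The software that aligned and counted the reads and the handling of shared reads and molecular identifiers were not given in the sources used here. Expected counts by mature miRNA were deposited by the authors, and 6.33 to 7.27% of a library's values carry a fraction. Values of miR-30a-5p were not whole in 6 of 6 libraries and those of miR-30d-5p in 5, so reads may have been divided between such arms.

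Column names gave the groups. The number 1 stands on 2 knockout columns, here S1 and S2 after their index. Counts were rounded and tested over all miRNAs with edgeR 4.0.16 in R 4.3.3 (filterByExpr, minimum count 10 and minimum total 15, TMM, robust quasi-likelihood fit of all 6 libraries, no covariates, Benjamini-Hochberg at 0.05). These miRNAs held 99.98% of counts, and 3 counts correspond to 0.201 to 0.305 CPM. Standard errors were derived from the log2 fold change and its F statistic. Arm ratios (counts plus 0.5) were fitted with limma 3.58.1 over all hairpins. Shares and pair ratios were compared with exact permutation tests in scipy 1.17.1, and figures drawn with matplotlib 3.10.9. Fits were tested on simulated data. Positions are from GENCODE release 29.

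Alternatives were DESeq2 1.42.0 size factors or test, upper-quartile factors, library totals, no filter, 10 CPM in 3 libraries, limma-voom, a replicate block, leaving out 1 library at a time, and for ratios a pseudocount and rounding. The 10 arms, the lists and the tests were chosen with earlier results of these data known. The naming rule gives all 10 arms, miR-30c-1-3p, the 3 miRNAs averaging at least 10 CPM that correlate best with miR-30d-5p and with miR-30a-5p (log2 CPM, prior count 2), and up to 3 members of each role list by smallest adjusted p. The sum without miR-30d-5p was chosen after seeing the data. All columns were used.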

Additional observations from a re-analysis of the deposited data

How the results depend on the processing

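The count of called miR-30 arms was 2 under every alternative of scaling, filter and test, split as 1 higher and 1 lower under upper-quartile scaling and library totals. It was 1 with the replicate block (miR-30d-5p, lower; 38 higher and 50 lower over all miRNAs, against 77 and 104) and 1 to 5 with a library left out. The block uses the column numbers: block 1 holds 2 knockout libraries and ERβ library 1, block 3 holds 1 library of each group, and ERβ library 2 is alone and adds nothing to the contrast. Deviations from the group means correlated at -0.096, 0.134 and 0.123 for same-numbered libraries and at -0.103 to 0.083 for the others. Deviations from a group mean cancel within the group, and S1 and S2 share a number, so these correlations cannot decide whether the numbers pair the libraries. The labels do not say that they do, and the main fit leaves the numbers out. The summed 5p arms kept their sign and lost their call under upper-quartile scaling (-0.121), library totals (-0.056), no filter (-0.190), the DESeq2 test (-0.204) and the replicate block (-0.227), and ranged from -0.224 to -0.145 with a library left out. The summed 3p arms turned to 0.0101 under upper-quartile scaling and 0.0778 on library totals.

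Values near 0 changed sign. Under upper-quartile scaling, library totals and no filter, miR-30d-3p was at 0.0668, 0.115 and 0.0015, and miR-30e-5p at 0.104, 0.150 and 0.0386. The latter was at 0.0343 with the filter of 10 CPM. With a library left out, the ranges were -0.149 to 0.0288 for miR-30d-3p, -0.0636 to 0.0406 for miR-30e-5p, -0.0683 to 0.120 for miR-30c-2-3p (-0.0182 with the replicate block) and -0.0696 to 0.266 for miR-30c-1-3p. They were -0.0113 to 0.0723 for the miR-30a arm ratio, -0.311 to 0.00627 for that of miR-30b, and -0.235 to 0.432 percentage points for the share of miR-30c-5p. The cause was not tested. The 3 pair ratios kept their direction in all alternatives run, and the number of arms with separate shares was 3, or 4 without S2. miR-30b-3p was not tested under the filter of 10 CPM, and it had 59 to 95 counts a library.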
